A study of Mus musculus with 2 samples.

Results

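The miR-200 family consists of the mouse miRNAs mmu-miR-200a, mmu-miR-200b, mmu-miR-200c, mmu-miR-141 and mmu-miR-429. Its members were taken by name from the array, with both arms of each precursor, which gave 10 probes of the 1900 mouse miRNA probes. Total RNA of mononuclear cells isolated from the lamina propria of the colon was labelled with the red dye Hy5 and hybridised to miRNA arrays. The cells came from male mice of the strain Balb/c, either specific pathogen-free (SPF), with a gut microbiota, or germ-free, without one. There was 1 array for each group, so the differences below have no replicate check, no error between animals and no p-value. How many animals stand behind an array is not given in the sources used here.

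A miRNA pairs with the 3′ untranslated regions of mRNAs through its seed, the bases near its 5′ end, and lowers their stability and translation. The miR-200 family is abundant in epithelia, where its repression of Zeb1 and Zeb2, which are transcription factors, restrains the epithelial to mesenchymal transition. The 3p arm is the arm usually retained as the guide strand, and the 5p arm is usually degraded. Mononuclear cells of the lamina propria are mostly lymphocytes and myeloid cells, so a family of epithelial miRNAs is not what defines the isolate.

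The mature sequences show what joins and what separates the members, and are given from RefSeq (GRCm38.p6) from 5′ to 3′ with the seed, bases 2 to 8, in capitals. All 10 probes were matched by name, and the probes' own sequences were not used here.
miR-200b-3p: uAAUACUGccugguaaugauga
miR-200c-3p: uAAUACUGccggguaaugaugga
miR-429-3p: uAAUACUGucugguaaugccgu
miR-200a-3p: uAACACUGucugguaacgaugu
miR-141-3p: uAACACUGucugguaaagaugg
miR-200b-5p: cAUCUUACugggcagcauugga
miR-200a-5p: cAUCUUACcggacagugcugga
miR-141-5p: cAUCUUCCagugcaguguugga
miR-200c-5p: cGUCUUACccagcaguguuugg
miR-429-5p: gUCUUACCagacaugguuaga

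The 3p arms fall into 2 seed groups, with miR-200b, miR-200c and miR-429 in one and miR-200a and miR-141 in the other. The groups differ in the seed by 1 base, written C4U from miR-200a-3p to miR-200b-3p with positions counted from the 5′ end. Within a seed group the closest pairs crossed the genomic clusters. miR-200b-3p and miR-200c-3p differed by U11G and A22G over 22 aligned bases, and miR-141-3p and miR-200a-3p differed by A17C and G22U. Among the 5p arms only miR-200a-5p and miR-200b-5p share a seed. Among the 1614 miRNA names on the array with a RefSeq sequence, none outside the family had the seed of a member, and the nearest sequence to any member was 7 edits away. Probes for members that differ by 2 bases can capture each other's target, and the size of such cross-hybridisation was not tested.

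The members come from 2 loci, both on the minus strand. In GENCODE M21 (GRCm38) Mir200b lies at chr4:156055681-156055750, Mir200a at chr4:156054896-156054985 and Mir429 at chr4:156053905-156053987, within 1846 bases. All 3 lie in an intron of a coding transcript of Ttll10, a tubulin polyglycylase gene, whose GENCODE extent is chr4:156034840-156059414. The RefSeq extent of Ttll10 ends at 156050817, so that in RefSeq the 3 miRNA genes lie upstream of its start. Mir429 also overlaps an exon of the noncoding gene Gm13648. Mir200c lies at chr6:124718322-124718390 and Mir141 at chr6:124717914-124717985, with 336 bases between them, both in an intron of the noncoding gene Gm15884. The first locus is called the Ttll10 cluster below and the second the miR-200c cluster.

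The known target Zeb2, on chromosome 2, holds matches to the seeds of both groups. In the longest 3′ untranslated region of Zeb2 in GENCODE M21, 4941 bases long, the letters CAGTATT, which pair with the seed of miR-200b, miR-200c and miR-429, occur 5 times. The letters CAGTGTT, which pair with the seed of miR-200a and miR-141, occur 4 times. The search read the transcript strand alone, and the motifs cannot overlap each other. Of 1343 other genes with a 3′ untranslated region within 25% of this length, 36.0% held the first motif at least once and 49.7% the second. As many matches as in Zeb2 were found in 0.149% of them for the first motif and in 1.34% for the second. The first match of each kind is shown with its neighbouring bases, in DNA letters and with the match in capitals.
Zeb2, match to the seed of miR-200b, miR-200c and miR-429: actaccatacatCAGTATTttattattatt
Zeb2, match to the seed of miR-200a and miR-141: aaaaattttgtaCAGTGTTaaggcctaaaa

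All 5 3p arms were brighter on the SPF array than on the germ-free array. The deposited value is the median intensity of a spot in the red channel, and each probe has 1 spot. The mean of the blank spots, 158.3 on the SPF array and 128.5 on the germ-free array, was subtracted. The SPF values were then multiplied by 0.849, so that the median probe above background was equally bright on both arrays. Net intensities below are on this scale. A probe counted as above the floor when its spot exceeded the mean of the blank spots by 2 of their SDs, which is 10.7 net on the SPF array before scaling and 9.05 on the germ-free array. This held on both arrays for 1471 probes, among them 9 of the 10 family probes, and a difference is given as log2 SPF over germ-free, where 1 stands for a 2-fold higher level.

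miR-200b-3p, the brightest family probe, had a net intensity of 3718 on the SPF array and 1292 on the germ-free array. miR-200a-3p had 1797 on the SPF array and 749 on the germ-free array. miR-429-3p had 1304 on the SPF array and 439.6 on the germ-free array. These are the 3 guide strands of the Ttll10 cluster, and each was more than 2-fold brighter on the SPF array. miR-200c-3p had 1489 on the SPF array and 683 on the germ-free array. miR-141-3p, the dimmest of the 3p arms, had 525 on the SPF array and 247 on the germ-free array. Both guide strands of the miR-200c cluster were also more than 2-fold brighter on the SPF array, by a smaller margin. The order by brightness was the same on both arrays. miR-200c-3p and miR-429-3p stood closer together on the SPF array, at a ratio of 1.14, than on the germ-free array, at 1.55. Brightness of a spot depends on its probe, so the order says nothing firm about the amounts of the different miRNAs.

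**Figure D1:**
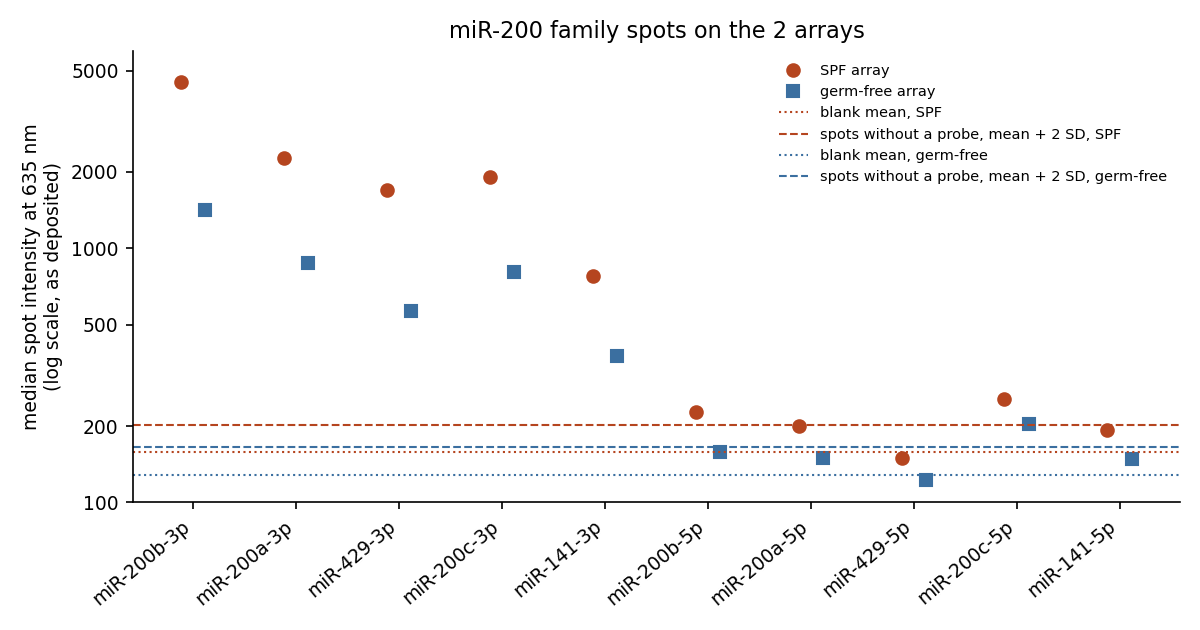
Median spot intensity as deposited (log axis) for the 10 family probes, with SPF circles left of germ-free squares, 1 spot each. Dotted lines mark the blank mean and dashed lines the mean + 2 SD of the probe-free spots. The 3p spots lie far above these lines on both arrays, from 376 to 4537, and the 5p spots lie close to them, from 123 to 255.

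The log2 value was 1.57 for miR-429-3p, rank 5 from the top among the 1471 shared probes, and 1.53 for miR-200b-3p, rank 6. It was 1.26 for miR-200a-3p (rank 11), 1.12 in miR-200c-3p (rank 16) and 1.09 in miR-141-3p (rank 18). All 5 were at least 2-fold higher, as were 23 of the 1471 shared probes, or 1.56%. No family probe was at least 2-fold lower, as 21 shared probes were, or 1.43%. The median was 1.26 for the 5 3p arms and 1.09 for the 9 family probes above the floor, against -0.06 over all shared probes and -0.07 over the 735 shared probes brighter than the median. In such bulk samples more cells of a type and more of a miRNA per cell cannot be told apart. Without scaling between the arrays the shared probes shifted to a median of 0.18 and the count was 39 higher and 9 lower, with the 5 3p arms between 1.32 and 1.80. With scaling on repeated bright controls the median was -0.19 and the count 15 higher and 36 lower, and miR-200c-3p at 0.995 and miR-141-3p at 0.955 were then under 2-fold. Repeated spots of 5 bright control probes, 8 on each array, gave a technical SD of 0.128 for a log2 value of a single bright spot. The same 5 controls had log2 values, each a mean over 8 spots, between 0.07 and 0.22, so all of the 3p arms lay beyond the controls.

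**Figure D2:**
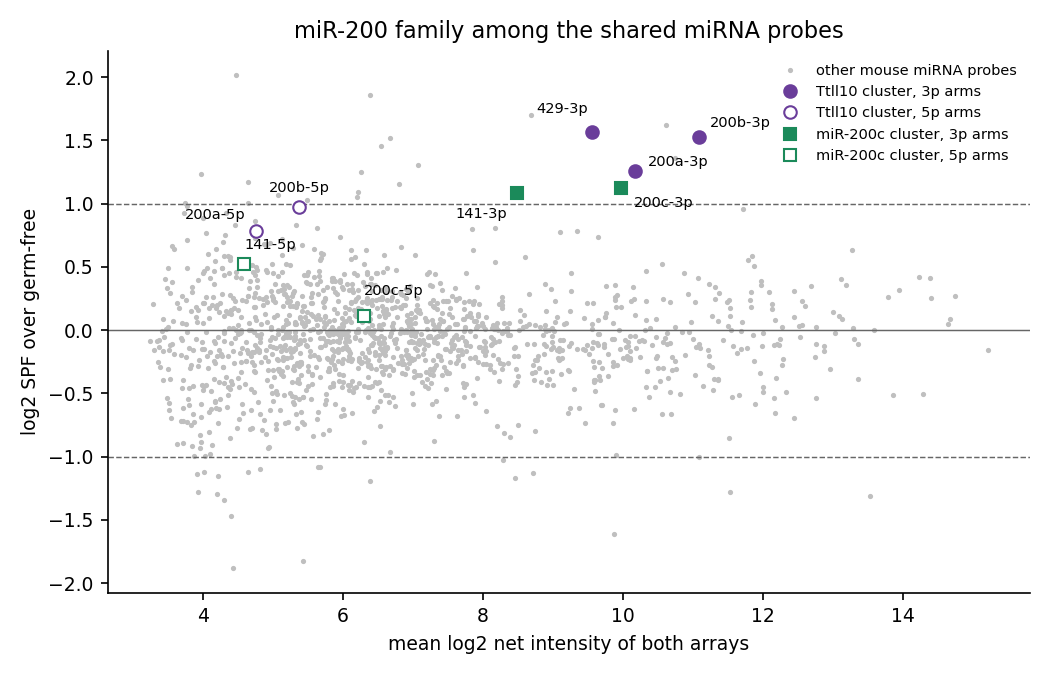
Log2 SPF over germ-free against the mean log2 net intensity of both arrays for the 1471 shared probes (grey) and the 9 family probes among them (coloured by cluster, filled for 3p and open for 5p arms). Dashed lines mark 2-fold. The 3p arms lie between 1.09 and 1.57, at the upper edge of probes of their brightness.

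The 3p arms of the Ttll10 cluster had higher log2 values than those of the miR-200c cluster, with no overlap. With local background subtraction this order turned, the difference of means being -0.48 there against 0.35 here, with miR-429-3p missing and the Ttll10 mean resting on 2 members. The Ttll10 cluster ran from 1.26 to 1.57 with a mean of 1.45, and the miR-200c cluster from 1.09 to 1.12 with a mean of 1.10. Summed over the cluster, net intensity was 6820 on the SPF array and 2481 on the germ-free array for the Ttll10 cluster, a 2.75-fold difference. For the miR-200c cluster it was 2014 on the SPF array and 930.1 on the germ-free array, a 2.17-fold difference. The difference between 2 log2 values of bright spots has a technical SD of 0.182. The gap between the nearest members of the clusters, 0.137 between miR-200a-3p and miR-200c-3p, lay within it, while the gap of 0.444 between miR-429-3p and miR-200c-3p was larger. The arrays hold no measure of how far 2 members of 1 transcript would differ between replicate samples, so the difference between the clusters was not tested.

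Ratios between members within an array are free of the scaling between arrays. The ratio of miR-200b-3p to miR-429-3p was 2.85 on the SPF array and 2.94 on the germ-free array. The ratio of miR-141-3p to miR-200c-3p was 0.352 on the SPF array and 0.362 on the germ-free array. In both of these pairs, each within 1 cluster, the balance was nearly equal on the arrays before any correction for position. Across the clusters the ratio of miR-200b-3p to miR-200c-3p, which share a seed and differ by 2 bases, was 2.50 on the SPF array and 1.89 on the germ-free array. Within the Ttll10 cluster the ratio of miR-200a-3p to miR-200b-3p was 0.483 on the SPF array and 0.580 on the germ-free array. That of miR-200a-3p to miR-429-3p was 1.38 on the SPF array and 1.70 on the germ-free array. In these same-cluster pairs the log2 values differed by 0.263 and 0.306, beyond the technical SD of 0.182. The ratios with miR-200b-3p depend on the block of the array in which its spot lies. After centring on block medians the log2 values of miR-200b-3p and miR-429-3p differed by 0.424, and miR-200a-3p was above miR-200b-3p by 0.181. Over the 10 pairs of members, the absolute difference of log2 values had a median of 0.153 for the 4 pairs of the same cluster and 0.420 for the 6 pairs of different clusters. After block centring these medians were 0.212 and 0.364. Pairs share members, so these are descriptions.

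The seed groups overlapped. miR-200b-3p, miR-200c-3p and miR-429-3p ran from 1.12 to 1.57 with a mean of 1.41, and miR-200a-3p and miR-141-3p from 1.09 to 1.26 with a mean of 1.17. The median absolute difference of log2 values was 0.289 for the 4 pairs that share a seed and 0.284 for the 6 that do not, and 0.401 and 0.220 after block centring. Grouping these 5 probes by cluster left a gap between the groups, and grouping by seed did not. That gap, 0.137, lay within the technical SD of 0.182, and with local background subtraction the clusters overlapped. Summed over miR-200b-3p, miR-200c-3p and miR-429-3p, net intensity was 6511 on the SPF array and 2414 on the germ-free array. For miR-200a-3p and miR-141-3p it was 2322 on the SPF array and 996 on the germ-free array. These are sums of brightness, which depends on the probe, without correction for the block, and they do not measure amounts of miRNA.

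**Figure D3:**
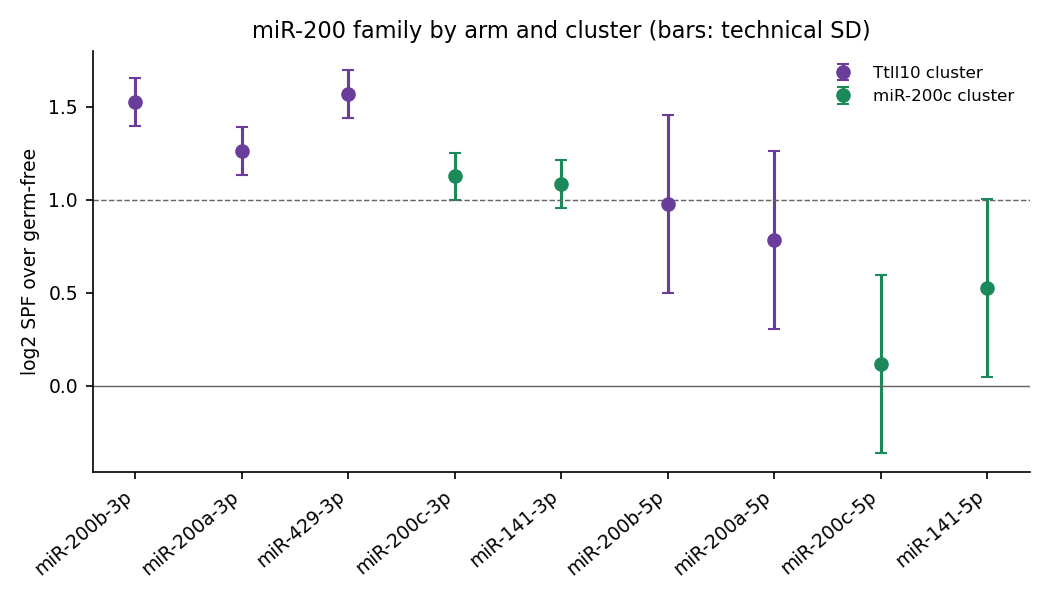
Log2 SPF over germ-free for the 9 family probes above the floor, by arm and cluster, with bars of 1 technical SD from repeated control spots (0.128 for 3p arms, from bright controls, and 0.478 for 5p arms, from weak controls). In both arms the Ttll10 cluster lies above the miR-200c cluster, from 1.26 against at most 1.12 in 3p arms and from 0.78 against at most 0.52 in 5p arms, with wide bars in the 5p arms, of which miR-200a-5p and miR-141-5p lie under the level of probe-free spots (mean + 2 SD) on both arrays.

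The 5p arms, the strands usually degraded, were weak on both arrays. miR-200c-5p had a net intensity of 81.9 on the SPF array and 75.6 on the germ-free array. miR-200b-5p had 58.3 on the SPF array and 29.6 on the germ-free array. miR-200a-5p had 35.5 on the SPF array and 20.6 on the germ-free array. These 3 lay far under their 3p arms, and miR-200c-5p was the brightest 5p arm although miR-200b-3p was the brightest 3p arm. miR-141-5p had 29.0 on the SPF array and 20.2 on the germ-free array. miR-429-5p was under the blank mean on both arrays, so no fold is given for it. On the array 174 spots hold no probe. Not 1 of them was brighter than miR-200c-5p on either array. In contrast, 3 on the SPF array and 12 on the germ-free array were brighter than miR-200b-5p, and 16 on the SPF array and 45 on the germ-free array were brighter than miR-141-5p. For miR-200a-5p these numbers were 8 on the SPF array and 42 on the germ-free array.

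The log2 values of the 5p arms were 0.98 for miR-200b-5p, 0.78 for miR-200a-5p, 0.52 for miR-141-5p and 0.12 for miR-200c-5p. None reached 2-fold on this scaling. miR-200b-5p was at least 2-fold higher under 4 of the 13 other settings, from 1.01 to 1.21, and miR-200a-5p under 1, at 1.02 without scaling. The technical SD of a log2 value was 0.478, from 5 weak control probes with 8 spots on each array. These controls had log2 values, each a mean over 8 spots, between -0.82 and 0.19. The values of miR-200b-5p, miR-200a-5p and miR-141-5p lay above all of these means, and that of miR-200c-5p lay among them. The family values are of single spots, which vary more than such means, and miR-141-5p lay within the technical SD of the highest control. When the floor was raised to that of probe-free spots, miR-200c-5p was above it on both arrays, at 0.16. miR-200b-5p was above it on the SPF array only, and its value of 0.69 is a bound with the germ-free value set to that floor. miR-200a-5p and miR-141-5p were under it on both arrays and had no value, so the order of the clusters in the 5p arms was not measured above that level.

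The balance of the arms could be read above the probe-free level on both arrays for miR-200c alone. Its ratio of 3p to 5p net intensity was 18.2 on the SPF array and 9.03 on the germ-free array, a change of 1.01 on the log2 scale against a technical SD of 0.495. Over the other settings this change ran from 0.917 to 1.31. For miR-200b, miR-200a and miR-141 the 5p spot was under the probe-free level on the germ-free array, and for miR-200a and miR-141 on the SPF array too, so no ratio is given for them. With local background subtraction the 3p and 5p values of miR-200a were -0.14 and 0.74, against 1.26 and 0.78 as reported. In every other setting with a value for both arms, its 3p value was the higher one.

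miR-200b-3p lies in a part of the array with raised values. The spots lie in 32 blocks, whose median log2 value ran from -0.25 to 0.32, and miR-200b-3p lies in the block with the highest median. Its adjacent miRNA spots above the floor were miR-455-3p at 0.60 and miR-674-3p at 0.81. Centred on the median of its block, miR-200b-3p was at 1.21, under miR-200a-3p at 1.39 and miR-429-3p at 1.63. The other 3p arms lay in blocks with medians between -0.12 and 0.09. The adjacent spots of miR-200a-3p were at -0.38 and -0.33, and those of miR-200c-3p and miR-141-3p had medians of -0.00 and -0.06. Next to miR-429-3p, miR-147-3p was at 0.93, above both neighbours of miR-200b-3p, and the other two were at -0.05 and -0.25. No adjacent spot of a 3p arm reached the arm's own value. With this correction miR-200c-3p was at 1.04 and miR-141-3p at 1.01, so that the clusters still did not overlap, while the difference of means between the seed groups was 0.09, against 0.23 without it.

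**Figure D4:**
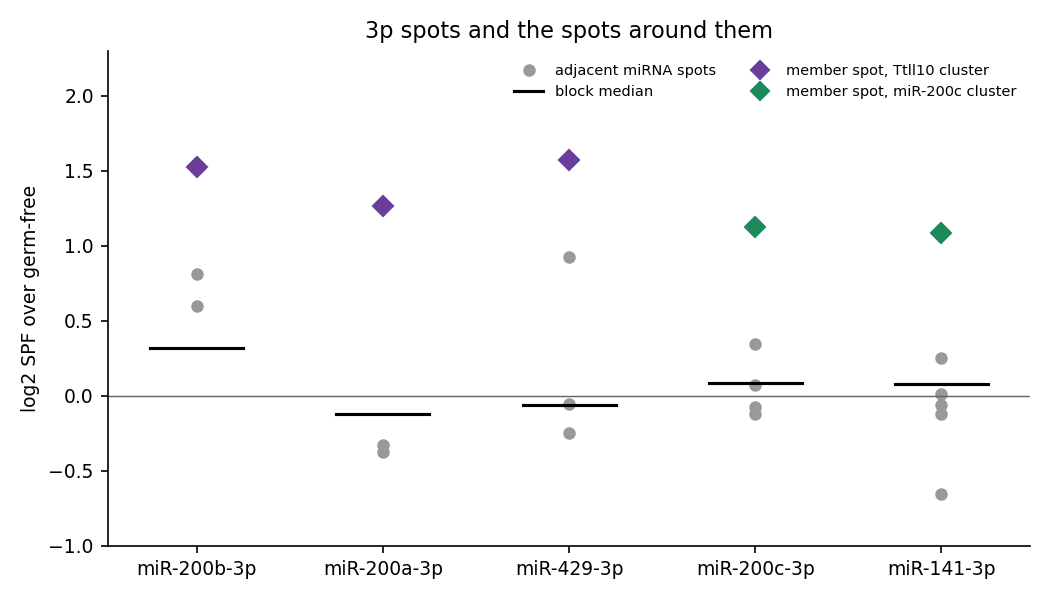
Log2 SPF over germ-free of the 5 3p spots (diamonds), of the miRNA spots above the floor next to them in the block (grey) and the median of the block (black line). Each 3p spot lies above its neighbours, the block of miR-200b-3p has a median of 0.32 with neighbours at 0.60 and 0.81, and 1 neighbour of miR-429-3p is at 0.93. The neighbours with these values are weak spots.

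Removing background by each spot's own surroundings changed the result most. The local background reached 62.8% to 86.4% of the signal of the 3p spots on the SPF array and 66.3% to 103.6% on the germ-free array. It was 632 to 3920 around the 3p spots on the SPF array and 315 to 1176 on the germ-free array. Around the dim 5p spots it was 125 to 184 and 99.2 to 137, near the blank means of 158.3 and 128.5. It was thus higher around the bright spots, and why was not tested. For miR-429-3p the local background of 589 exceeded the signal of 568 on the germ-free array, so no log2 value could be had. For miR-200a-3p the signal was 2275 over a local background of 1954 on the SPF array and 878 over 623 on the germ-free array, and its log2 value became -0.14. The values were 0.90 for miR-200c-3p, 0.86 for miR-200b-3p and 0.78 for miR-141-3p. None of the 4 3p arms with a value was then at least 2-fold higher, against 6.75% of the shared probes, and the clusters overlapped. With no background subtracted, miR-200b-3p was at 1.40, miR-429-3p at 1.30 and miR-200a-3p at 1.10, and miR-200c-3p and miR-141-3p were under 2-fold at 0.96 and 0.77.

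**Figure D5:**
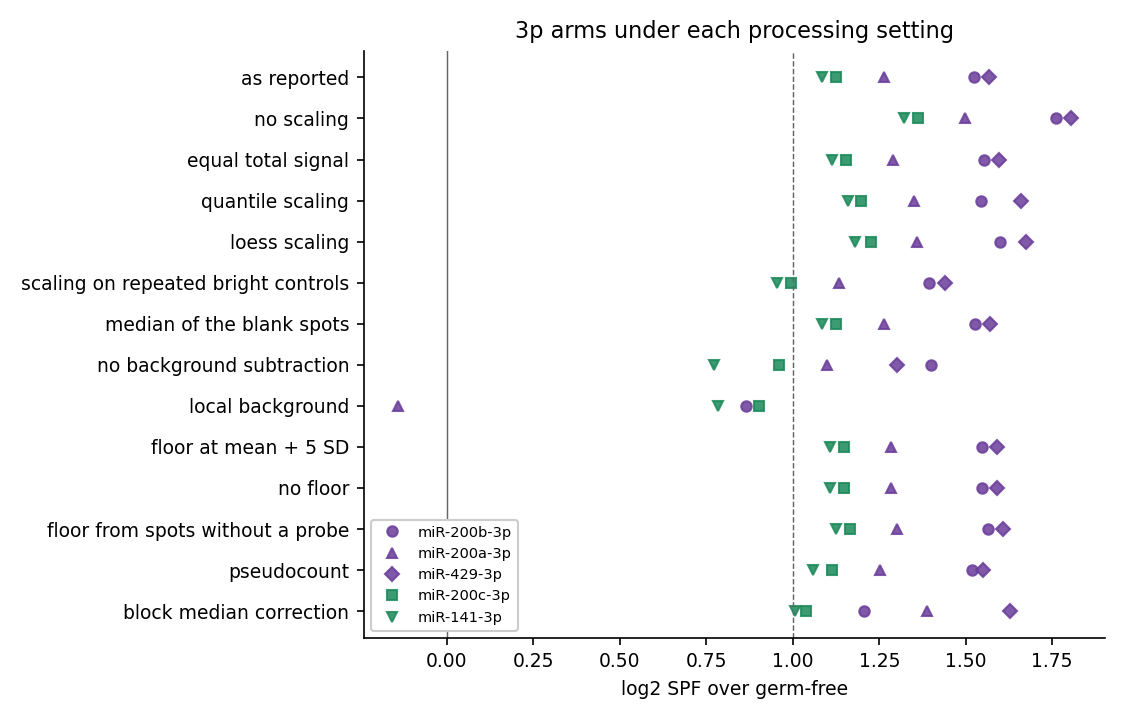
Log2 SPF over germ-free of the 5 3p arms as reported and under 13 other settings, with Ttll10 cluster members in purple and miR-200c cluster members in green and the dashed line at 2-fold. In every setting but local background subtraction, where miR-429-3p has no value and miR-200a-3p is at -0.14, the 3 Ttll10 members lie above the 2 others.

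The miRNAs nearest to the family were chosen by value, as the 5 probes brighter than the median whose log2 value lay closest to the 3p median of 1.26, a likeness over 2 arrays alone. By closeness they were miR-182-5p (1.31), miR-194-5p (1.36), miR-215-5p (1.16), miR-6973b-3p (1.46) and miR-196b-5p (1.52). Of these miR-194-5p was as bright as the family, with a net intensity of 2764 on the SPF array and 1074 on the germ-free array, and the other 4 were between 156 and 212 on the SPF array and between 56.6 and 85.6 on the germ-free array.

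Markers of epithelium were in part higher on the SPF array too. Of 6 epithelium miRNAs, miR-192, miR-194, miR-215 and miR-203 were at least 2-fold higher on the SPF array, beside 1.56% of the shared probes. Each miRNA of a list is represented by its brighter arm. Summed over the 6, net intensity was 6001 on the SPF array and 2338 on the germ-free array, a 2.57-fold difference, beside 2.59-fold for the summed 3p arms of the family. miR-192-5p, with 2765 on the SPF array and 898 on the germ-free array, and miR-194-5p, with 2764 and 1074, made up most of both sums. miR-375-5p and miR-802-3p of the epithelium list were at -0.23 and -0.62, with miR-802-3p under the probe-free level on both arrays. Of its less bright arms, miR-192-3p was at 2.01, miR-215-3p at 0.27 and miR-375-3p at -0.01. miR-192-3p had 44.8 on the SPF array and 11.1 on the germ-free array, there under the probe-free level of 37.2. miR-194-1-3p, with 31.3 on the germ-free array, was also under that level there. The 7 lymphocyte miRNAs summed to 9396 on the SPF array and 21365 on the germ-free array, with a median of -0.58. Of these 6 were under 0, and 1, miR-150-5p, was at least 2-fold lower, beside 1.43% of the shared probes. miR-150-5p made up most of both sums, and without it they were 1844 on the SPF array and 2666 on the germ-free array, 0.692 times the germ-free level in place of 0.440. The blood and myeloid, stromal and muscle, and erythroid lists had medians of -0.29, 0.03 and -0.48, and no brighter arm in them was at least 2-fold higher or lower. The blood and myeloid list was mixed. In it miR-223-3p was at 0.74, with 1040 on the SPF array and 622 on the germ-free array, and miR-146a-5p was at 0.07. miR-511-5p was at -0.72, with 10.1 on the SPF array and 16.5 on the germ-free array, under the probe-free level on both. The less bright arm miR-142a-3p, of the blood and myeloid list, was at -1.01, with 1534 on the SPF array and 3081 on the germ-free array, while miR-142a-5p, which stood for it, was at -0.66. miR-1a, a muscle marker, was under the floor on both arrays. The part of the cell makeup in the family's difference was not tested.

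Other miRNAs of the epithelial to mesenchymal transition went in different directions. Of 11 miRNAs that restrain it, 3 were at least 2-fold higher (1.62 for miR-192-5p, 1.16 for miR-215-5p, 1.05 for miR-203-3p, all of them in the epithelium list too) and 1 at least 2-fold lower, miR-101a-3p at -1.08, beside 1.56% higher and 1.43% lower among the shared probes. Their median was 0.32, against -0.06 over the shared probes. miR-205-5p, which like the miR-200 family represses Zeb1 and Zeb2, was at -0.19, with a net intensity of 91.0 on the SPF array and 104 on the germ-free array. Of 6 miRNAs linked in the literature to promoting the transition, 5 were above the floor, with a median of 0.81. Of these 1 was at least 2-fold higher, miR-222-3p at 1.25, and 1 lower, miR-10b-5p at -1.17, and miR-21a-5p, the brightest, was at 0.96. miR-9 was under the floor on both arrays in both arms. Among the less bright arms of both lists, miR-192-3p at 2.01 and miR-222-5p at 1.24 were at least 2-fold higher. On the germ-free array they had 11.1 and 10.2 net, under the probe-free level of 37.2. No other such arm above the floor reached 2-fold in either direction. The miRNAs of both lists thus lay on either side of 0. Their roles in these cells were not tested.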

How the data were processed

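Each deposited file holds 1 array, per the file headers, with the authors' median intensity of each of 3200 spots and of its surroundings, read at 3 gains. For platform and scanner, the sources used here state nothing. Intensities were net of the mean of the blank spots (SD 5.33 over 895 spots on the SPF array, without 1 spot marked as failed, and 4.53 over 896 on the germ-free array), scaled on the median of the shared probes, and compared as log2 ratios. With 1 array per group no test was run, and the number of arrays limits the precision. Technical SDs come from control probes with 8 spots on each array. They are split at net intensities of at least 200 (bright) and of 20 to 100 before scaling (weak). The scripts were tested on simulated arrays.

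The members, the marker and pathway lists (represented by the brighter arm of each miRNA) and the tests were chosen with earlier results of these data known. The miRNAs named are all family probes, all lists, and the 5 probes above the median brightness nearest to the 3p median. Neighbours of family spots were named after their values were seen. The alternatives are scalings (none, total, quantile, loess with a span of 0.4), backgrounds, floors, a pseudocount equal to the floor and block centring. Scaling on the 5 bright controls was added after seeing the data. Sequences are from RefSeq and positions from GENCODE M21. Python 3.11.15, numpy 2.4.6, pandas 2.3.3 and statsmodels 0.14.6 were used.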

Additional observations from a re-analysis of the deposited data

How the results depend on the processing

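The 3p arms were all above 0 under 12 of the 13 settings, and under local background subtraction 3 were above 0, with miR-200a-3p at -0.14. The 3p median of 1.26 was 0.82 with local background, 1.10 without background subtraction, 1.498 without scaling and 1.13 with scaling on repeated bright controls, where miR-200c-3p and miR-141-3p were under 2-fold. The median of all arms, 1.09, was 0.50, 0.77, 1.32 and 0.95 in the same order. The 5p median of 0.65 was -0.0783 with local background and 0.12 without background subtraction. The difference of 3p means between the Ttll10 and the miR-200c cluster, 0.35, was -0.48 with local background, where miR-429-3p has no value and the Ttll10 mean is of 2 members. That between the seed groups, 0.23, was 0.56 with local background and 0.0936 after block centring. The causes were not tested.

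The number of probes at least 2-fold higher, 23, was 97 with local background, 6 without background subtraction, 66 without a floor, 39 without scaling, 15 with a pseudocount and 15 with scaling on repeated bright controls. The number lower, 21, was 51, 3, 86, 9, 10 and 36 in the same order, 10 with a floor at mean + 5 SD and 6 with a floor set by probe-free spots. At 1.5-fold the numbers were 68 higher and 112 lower, and at 3-fold 4 and 3. No paired analysis was possible because each group is 1 array. A log2 value was taken as moved when it changed by more than the technical SD, since there is no replicate spread, and a number of probes when it changed by more than 1.5 times. Signal near that of probe-free spots limits the 5p arms.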
